A study of Mus musculus with 6 samples.

Results

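The genes described here encode the membrane transporters that carry bile salts and bile lipids through liver cells. They were chosen by name and number 10 of the 52550 genes listed: Abcb11, Abcc2, Abcb4, Abcg5, Abcg8, Slc10a1, Slco1b2, Slc10a2, Slc51a and Slc51b. Their RNA was measured after a sort for GFP from livers of CD-1 embryos that carry Sox9-GFP, a mouse transgene by which green fluorescent protein marks cells with an active Sox9 gene. The E16.5 group had 3 libraries and the E18.5 group 3, with the letters A, B and C for the replicates. The sample labels give these stages as embryonic days 16 and 18. A library came from a pool of livers. Both stages carried the same transgene, no treatment is labelled, and the labelled difference between the groups is age. The reporter follows SOX9 and not a finished bile duct cell, and the study's methods add a magnetic depletion of hematopoietic cells before the sort.

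As background, hepatocytes take bile salts from blood across their basolateral membrane and pump them into the canaliculus, the narrow lumen between neighbouring hepatocytes, from which bile drains into the ducts. Phospholipid and cholesterol are moved into bile by separate pumps, and phospholipid shields the duct lining from the detergent action of bile salts. Cholangiocytes, the cells of the duct wall, can take bile salts back from the lumen through an apical carrier and release them on the basolateral side through a transporter made of a pair of subunits. The nuclear receptor FXR senses bile salts and, with its partner RXR, raises transcription of several of these genes.

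Promoter sequences of members are shown first, since binding of FXR near the start sites is part of how several of these genes are known to be controlled. The sequences are from RefSeq on GRCm38.p6, and each window searched ran from 250 bases before to 50 bases after a start site. All 10 members had at least 1 window. The hexamer AGGTCA, which many nuclear receptors recognize, was searched on both strands. It was found in windows of 6 members (Abcb11, Abcc2, Slc10a1, Slc51a, Slc51b and Slco1b2), and 16.3% of the 32851 promoters of the table hold it. Its inverted repeat, AGGTCA followed by any base and TGACCT, is the arrangement that FXR with RXR is known to bind. No member held it exactly. With at most 1 mismatch, a search added after the data were seen, it stood in the windows of Abcb11 and Slco1b2 and in 0.0822% of all promoters. These matches overlap the hexamer counted above, and a match of letters is a description, not a binding site. Slc10a1 and Abcc2 each held the single hexamer. For both it lies inside the gene as placed below, because the RefSeq start site of that window is farther inside. Another Slc10a1 window (chr12:80968656-80968955, minus strand) spans the start of the gene as placed below, and it did not hold the hexamer. The following stretches end at the base before the start site, with the match in capitals: the repeat in Abcb11 (chr2:69342617-69342736, minus strand) and Slco1b2 (chr6:141629398-141629517, plus strand), and the single hexamer in Abcc2 (chr19:43782188-43782307, plus strand).
Abcb11: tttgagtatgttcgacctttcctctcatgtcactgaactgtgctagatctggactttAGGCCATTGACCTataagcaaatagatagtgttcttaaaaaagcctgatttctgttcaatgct
Slco1b2: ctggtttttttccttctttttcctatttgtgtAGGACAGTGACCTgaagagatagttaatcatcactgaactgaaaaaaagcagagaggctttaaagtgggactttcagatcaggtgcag
Abcc2: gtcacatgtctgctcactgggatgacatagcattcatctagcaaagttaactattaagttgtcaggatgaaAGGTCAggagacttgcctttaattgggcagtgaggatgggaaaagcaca

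The hexamer of HNF1, a liver and kidney transcription factor, is GTTAAT. It was found in the windows of Slc10a2 and Slco1b2 and in 7.10% of all promoters. Its inverted repeat spaced by 1 base, with at most 1 mismatch and again searched after the data were seen, occurred in Slc10a2 alone among the members and in 0.207% of all promoters. It is shown in capitals in the outer part of the Slc10a2 window (chr8:5105418-5105537, minus strand). The HNF4A letters CAAAGTCCA were in none of the members' windows and in 0.475% of all promoters.
Slc10a2: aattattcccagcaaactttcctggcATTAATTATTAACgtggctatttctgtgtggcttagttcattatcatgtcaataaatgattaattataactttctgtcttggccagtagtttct

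Abcg5 and Abcg8 lie head to head on chromosome 17, and the start site of Abcg5 is 110 bp from a start site of Abcg8. A second Abcg8 window of the table begins farther inside the Abcg5 gene. The whole of the sequence between the neighbouring start sites lies upstream of Abcg5 and of the nearer Abcg8 start site. It lies inside the Abcg8 gene as placed below (chr17:84676302-84700333), which begins farther upstream. The sequence is shown because the ratio of the genes is examined below (chr17:84683012-84683120, written on the Abcg8 strand). None of the letters searched was found in the windows of Abcg5, Abcg8 or Abcb4.
Abcg5 and Abcg8: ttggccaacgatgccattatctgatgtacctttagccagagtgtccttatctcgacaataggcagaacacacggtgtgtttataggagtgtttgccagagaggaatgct

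The values are TPM, a scale for transcripts on which each library sums to 1000000, and which divides the reads of a gene by its length and by the library total, so that levels can be compared between genes. Reads were recovered from the TPM and came to between 23193537 and 26206374 per library at E16.5 and between 13093937 and 22643868 at E18.5, so low values are less precise at E18.5. Intervals from these reads are exact 95% intervals and cover counting error only. The labels call the cells cholangiocytes. Of a list of 10 cholangiocyte markers, 9 reached 1 TPM in every library, and their summed level ranged from 723 to 2457 TPM at E16.5 and from 8068 to 13856 TPM at E18.5. The 12 genes of a hepatoblast list, hepatoblasts being the embryonic precursors of hepatocytes and cholangiocytes, summed to between 183824 and 233254 TPM at E16.5 and to between 46102 and 107703 TPM at E18.5. E18.5 replicate B had the lowest value of the 6 libraries for 12 of these 12 genes, and E16.5 replicate C had the lowest value for 10 of the 10 cholangiocyte genes, so results that rest on either are also given without them. In such bulk samples, fewer cells of a type and less RNA per cell cannot be told apart.

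The canalicular pumps Abcb11, Abcc2 and Abcb4 and the uptake carriers Slc10a1 and Slco1b2 had means between 9.37 and 90.6 TPM at both stages, whereas Abcg5, Abcg8, Slc51a, Slc51b and Slc10a2 had means of at most 2.56 TPM. No member passed the test between the stages. The spread among the E18.5 libraries was wide for Abcb11, Slc10a1 and Slco1b2, and much narrower for Abcc2. The plot of the members' levels shows all values.

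**Figure D1:**
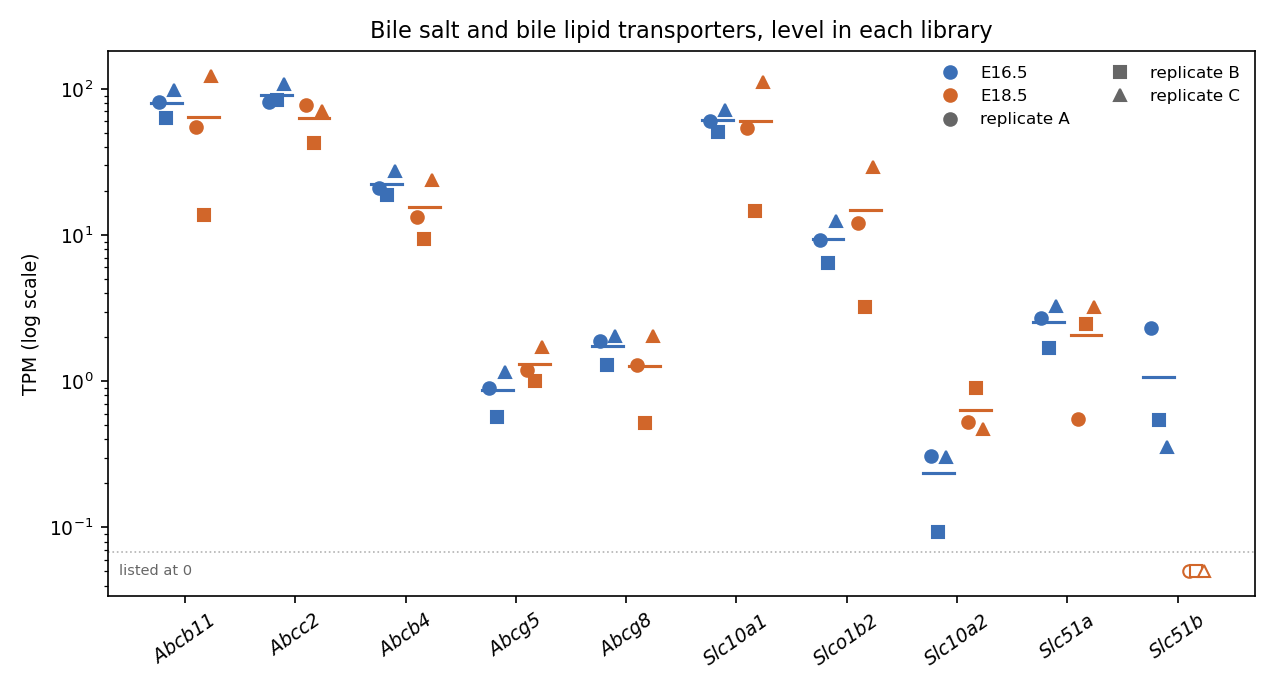
TPM (log axis) of the 10 transporters in each library at E16.5 (blue) and E18.5 (orange), with circles, squares and triangles for replicates A, B and C and a bar for the mean of 3. Open symbols under the dotted line are libraries in which the gene is listed at 0. The E18.5 squares lie far below the triangles for Abcb11, Slc10a1 and Slco1b2, and Slc51b is listed at 0 in all E18.5 libraries.

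Abcb11, the bile salt export pump of the canalicular membrane, lies on chromosome 2 (chr2:69238282-69342616, minus strand, GRCm38). Its level was 81.3 TPM in replicate A, 62.8 in B and 97.7 in C at E16.5, and in the same order 54.7, 13.6 and 123 TPM at E18.5. The E18.5 libraries thus lay on both sides of the E16.5 values. The means were 80.6 ± 17.5 TPM (SD, n = 3) and 63.9 ± 55.4 TPM (SD, n = 3). The E16.5 mean exceeded that of 93.6% of the protein-coding genes listed and the E18.5 mean that of 88.7%. The highest E18.5 library was 9.06 times the lowest, a ratio larger than that of 98.8% of the genes compared, whose median was 1.39.

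Abcc2, the canalicular pump for bilirubin conjugates and other organic anions, had the highest mean of the members at E16.5 (chr19:43782192-43840740, plus strand). Its values were 81.0, 83.5 and 107 TPM at E16.5 and 77.1, 42.6 and 70.8 TPM at E18.5. All of the E18.5 values were below all of the E16.5 values. The means were 90.6 ± 14.5 and 63.5 ± 18.4 TPM (SD, n = 3 each). The exact permutation test gave p = 0.1, two-sided, the smallest that 3 libraries against 3 allow. Its range over the E18.5 libraries was 1.81-fold.

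Abcb4, the floppase that delivers phosphatidylcholine to bile (chr5:8893717-8959231, plus strand), was listed at 21.0, 18.9 and 27.3 TPM at E16.5. It had 13.2, 9.40 and 23.8 TPM at E18.5. Replicates A and B of E18.5 lay below the E16.5 range and replicate C within it. The sterol pump consists of ABCG5 and ABCG8, which act as an obligate heterodimer, and both genes were low. Abcg5 (chr17:84658234-84683011, minus strand) had 0.903, 0.567 and 1.16 TPM at E16.5 and 1.19, 1.01 and 1.73 TPM at E18.5, from 12 to 25 reads per library. Abcg8 (chr17:84676302-84700333, plus strand) had 1.90, 1.30 and 2.04 TPM at E16.5 and 1.29, 0.522 and 2.04 TPM at E18.5, from 10 to 61 reads. The stages overlapped for both genes. Their exons share 82 bp on opposite strands, and whether the counting used strand is not given in the sources used here.

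Slc10a1 encodes NTCP, the sodium-dependent carrier that takes conjugated bile salts into hepatocytes (chr12:80953183-80968705, minus strand). Its level was 60.3, 50.6 and 72.2 TPM at E16.5 and 54.0, 14.5 and 112 TPM at E18.5. As for Abcb11, E18.5 replicate B was the lowest and E18.5 replicate C the highest of the 6 libraries. Slco1b2, a sodium-independent uptake carrier of the same membrane (chr6:141629518-141686646, plus strand), had 9.23, 6.40 and 12.5 TPM at E16.5 and 12.1, 3.22 and 29.1 TPM at E18.5, with the same lowest and highest libraries.

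The carriers by which bile salts are taken back from bile were scarce. Slc10a2 encodes ASBT, the apical bile salt carrier of cholangiocytes and ileum (chr8:5083219-5105351, minus strand). Its values were 0.309, 0.0926 and 0.302 TPM at E16.5, from 11, 3 and 10 reads, and 0.528, 0.895 and 0.474 TPM at E18.5, from 15, 19 and 8 reads. All of the E18.5 values were above all of the E16.5 values, with an exact permutation p of 0.1, the smallest possible, but so were those of 45.0% of all genes tested. The intervals of single libraries overlapped: 0.309 TPM in E16.5 replicate A had an interval of 0.154 to 0.553 TPM and 0.474 TPM in E18.5 replicate C one of 0.205 to 0.935 TPM.

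Slc51a and Slc51b encode the subunits of the basolateral bile salt exporter OST, and both are needed for transport. Slc51a (chr16:32474504-32487879, minus strand) had 2.70, 1.68 and 3.29 TPM at E16.5 and 0.548, 2.45 and 3.23 TPM at E18.5, with the lowest value in E18.5 replicate A. Its identifier has a different version in the annotation used for lengths, so no reads could be recovered for it, and 17.7% of its exon bases overlap Pcyt1a on the other strand. Slc51b (chr9:65412714-65422955, minus strand) had 2.30, 0.542 and 0.354 TPM at E16.5, from 14, 3 and 2 reads, and was listed at 0 in all 3 libraries at E18.5. A level of 3 reads would correspond to 0.619, 0.828 and 1.04 TPM in E18.5 replicates A, B and C, so the E16.5 levels of replicates B and C, but not that of replicate A, would lie below these limits.

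The listed levels of Slc51b at E16.5 fell from replicate A to B to C, as did the sums of an enterocyte list of 8 genes, at 71.5, 38.5 and 18.7 TPM. Of these genes, 2 reached 1 TPM in every library, and the sum was between 28.1 and 40.1 TPM at E18.5. A pancreatic acinar list of 6 genes gave 2396, 221 and 67.7 TPM at E16.5 and between 4.54 and 46.3 TPM at E18.5. Its genes Ctrb1 and Cpa1, which encode pancreatic digestive enzymes, had 1914 and 293 TPM in E16.5 replicate A, so Ctrb1 made up most of that sum. Amy2a5 and Pnlip of this list were highest in replicate B at E16.5, with 7.54, 8.45 and 1.77 TPM and 0.314, 0.432 and 0.253 TPM. The other acinar genes fell from A to B to C. The order of Slc51b between replicates B and C is not resolved, since their intervals overlap (0.112 to 1.59 and 0.0428 to 1.28 TPM). Of the cholangiocyte list, Krt19, Muc1 and Cldn4 also fell from A to B to C at E16.5, and the other genes were highest in B. The part of any of these cells in the Slc51b values was not tested.

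In order of mean TPM at E16.5, Abcc2 was followed by Abcb11, Slc10a1, Abcb4, Slco1b2, Slc51a, Abcg8, Slc51b, Abcg5 and Slc10a2. The ranges of neighbours did not overlap between Slc10a1 and Abcb4, between Abcb4 and Slco1b2, between Slco1b2 and Slc51a, and between Abcg5 and Slc10a2. The other neighbours could not be told apart by their ranges. At E18.5 the order was Abcb11, Abcc2, Slc10a1, Abcb4, Slco1b2, Slc51a, Abcg5, Abcg8, Slc10a2 and Slc51b, and only the last neighbours did not overlap. At E16.5, 7 of the 10 members were at 1 TPM or more in all 3 libraries, and at E18.5, 6 were. At least 3 reads in every library of a stage were found for 8 of the 9 members with recovered reads at E16.5 and again for 8 of 9 at E18.5, the exception being Slc51b each time.

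The comparison of E18.5 with E16.5 asks how the transporters change while the ducts form. It was made with limma on log2(TPM + 1) over 22452 genes, those whose mean was at least 1 TPM, with p-values adjusted by Benjamini-Hochberg over all of them, and a gene was called at an adjusted p under 0.05. This scale understates the change of low genes. Slc10a2 and Slc51b were below the filter, which left 8 members. None of these 8 was called, and 0 had an unadjusted p under 0.05, against 31.2% of all genes called (26.0% higher and 5.22% lower at E18.5). Limma voom on the recovered reads called 0 of 7 members, with 2 at an unadjusted p under 0.05. The median log2 fold change was -0.37 over the 8 members and 0.42 over all genes tested, and 6 of the 8 values were below 0. Of the 8 members, 1 (Abcc2) had stages that did not overlap, against 53.3% of all genes tested (8.30% lower at E18.5). Labels do not say that the libraries came from separate litters, so p-values measure the spread between these samples.

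**Figure D2:**
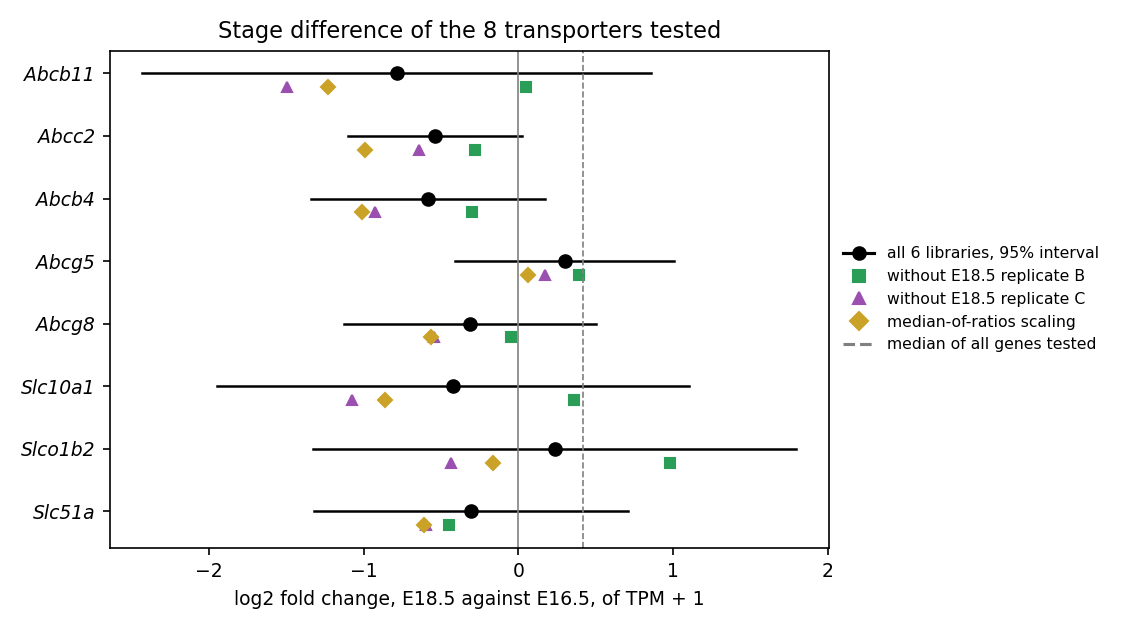
Log2 fold change of TPM + 1, E18.5 against E16.5, for the 8 transporters tested, with 95% intervals from limma in black. Squares, triangles and diamonds give the estimate without E18.5 replicate B, without E18.5 replicate C and after median-of-ratios scaling, and the dashed line is the median of all genes tested. All 8 black intervals include 0.

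The log2 fold change of Abcc2 was -0.54 with a standard error of 0.24 (95% interval -1.10 to 0.022), with an adjusted p of 0.118 in limma. It was -0.28 without E18.5 replicate B, its lowest library, and -0.15 without both E18.5 replicate B and E16.5 replicate C. That of Abcb4 was -0.58 ± 0.32 (SE), with an adjusted p of 0.191 in limma. It was -0.30 without E18.5 replicate B (adjusted p = 0.464 in limma) and -0.15 without both libraries. Abcb4 was the only member called under any setting: without E18.5 replicate C its log2 fold change was -0.93 and the adjusted p 0.0417, while the adjusted p of Abcb4 ranged from 0.0417 to 0.742 over all settings. Abcc2 and Abcb4 had estimates below 0 under every setting tried.

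For Abcb11, Slc10a1 and Slco1b2 the estimate turned on a single library. Abcb11 had a log2 fold change of -0.79 ± 0.70 (SE), which became 0.05 without E18.5 replicate B and -1.49 without E18.5 replicate C. Slc10a1 gave -0.42 ± 0.65 (SE), 0.36 without replicate B and -1.07 without replicate C. Slco1b2 gave 0.24 ± 0.66 (SE), 0.98 without replicate B (adjusted p = 0.149 in limma), -0.44 without replicate C and -0.16 after median-of-ratios scaling. The 95% intervals with all 6 libraries were -2.43 to 0.86 for Abcb11, -1.94 to 1.10 for Slc10a1 and -1.32 to 1.79 for Slco1b2. Each interval holds both falls and rises. It reaches farther toward a fall for Abcb11 and Slc10a1 and farther toward a rise for Slco1b2.

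Among the low members, Abcg5 gave 0.30 ± 0.30 (SE), Abcg8 -0.31 ± 0.34 (SE) and Slc51a -0.30 ± 0.43 (SE), with adjusted p of 0.456, 0.497 and 0.599 in limma. The estimate of Slc51a was 0.13 without E18.5 replicate A. With no filter on low values, Slc10a2 had a log2 fold change of 0.40 and an adjusted p of 0.249 in limma, and Slc51b an adjusted p of 0.136.

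The library profiles grouped the members in another way than the stages did. E18.5 replicate B was the lowest of the 6 libraries for 6 of the 10 members (Abcb11, Abcc2, Abcb4, Abcg8, Slc10a1 and Slco1b2), while 8.07% of all genes tested had their lowest value there. The highest value lay in E16.5 replicate C for Abcc2, Abcb4, Abcg8 and Slc51a, for 11 of the 12 hepatoblast genes and for 10.4% of all genes tested. It lay in E18.5 replicate C for Abcb11, Slc10a1, Slco1b2 and Abcg5, for 0 of the 12 hepatoblast genes and for 17.3% of all genes tested. Between E18.5 replicates B and C, Abcb11 differed 9.06-fold, Slco1b2 9.04-fold, Slc10a1 7.71-fold, Abcb4 2.53-fold and Abcc2 1.66-fold. Over the same libraries the hepatoblast genes differed between 1.10-fold (Vtn) and 7.12-fold (Apoa1, the main protein of high-density lipoprotein), with Alb, serum albumin, at 2.34-fold. The part of hepatocyte-lineage RNA in these values was not tested.

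**Figure D3:**
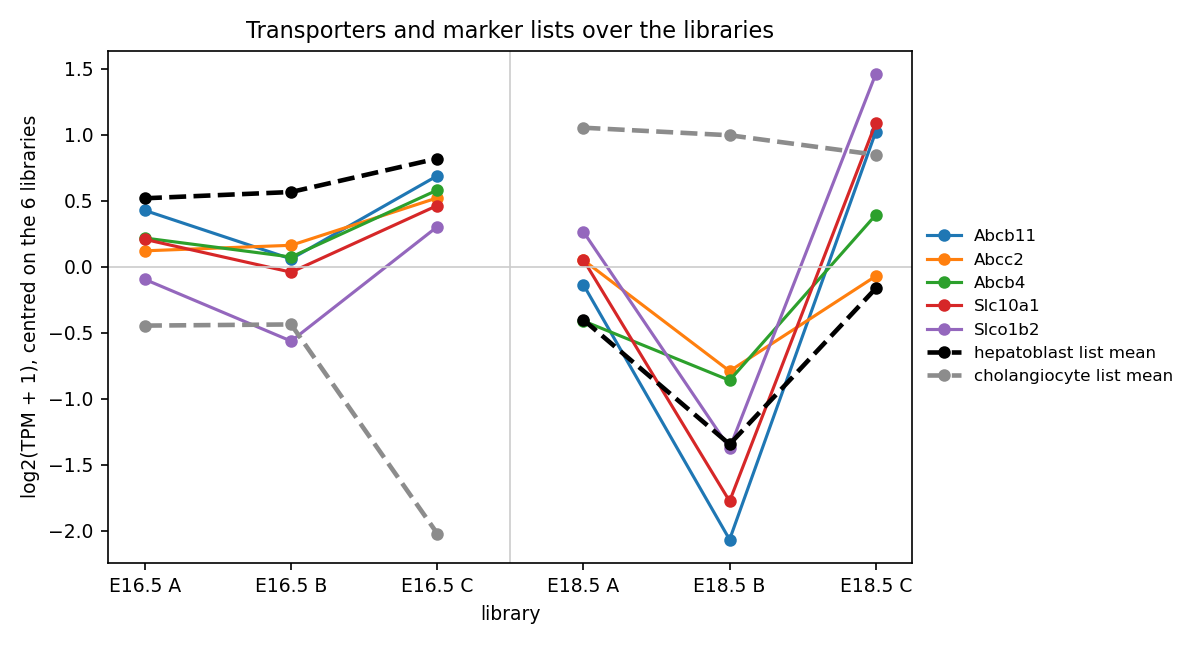
Log2(TPM + 1) of the 5 transporters whose mean was 5 TPM or more, each centred on its mean over the 6 libraries, with the means of the hepatoblast list (black, dashed) and the cholangiocyte list (grey, dashed). Lines join the points of one gene and imply no order of the replicates. In E18.5 replicate B the transporters lie between -2.07 and -0.79, and in E18.5 replicate C Abcb11, Slc10a1 and Slco1b2 lie between 1.02 and 1.46 while Abcc2 lies at -0.07.

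A gene's likeness to a member was measured as the root mean square difference of centred log2(TPM + 1) over the 6 libraries, among 11383 protein-coding genes whose mean was 5 TPM or more. Both Abcb11 and Slc10a1 had each other among their 3 nearest genes, at a difference of 0.20. The nearest genes of Abcb11 were Serpina3n, a secreted protease inhibitor of the acute phase, and Hpd, an enzyme of tyrosine breakdown, both at 0.17. Those of Slc10a1 were Acsm1 (0.16), a mitochondrial acyl-CoA synthetase, and Abcd2 (0.19), a peroxisomal fatty acid transporter. Serpina3n belongs to a family of near-identical genes, and its reads may be split among them.

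Slco1b2 was nearest to Cyp3a44 (0.14), a cytochrome P450 of another family of close copies, then to Agxt (0.20), the peroxisomal glyoxylate aminotransferase, and Iqcn (0.23). Abcc2 lay far from Abcb11, at 0.71. Its nearest genes were Thrb (0.074), a thyroid hormone receptor, Pxmp4 (0.089), a peroxisomal membrane protein, and Dmgdh (0.090), a mitochondrial enzyme of choline breakdown. Abcb4 was nearest to Steap3, a ferrireductase, Stard5, a lipid-binding protein, and Got1, the cytosolic aspartate aminotransferase, all at 0.11. These distances describe 6 libraries that differed in depth and in the summed levels of the marker lists. The part of these differences in the likeness of genes was not tested.

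The ratio of the RNA of the uptake carrier Slc10a1 to that of the export pump Abcb11 was steadier than either gene. Transport itself was not measured. Slc10a1 divided by Abcb11, both in TPM, was 0.742, 0.806 and 0.739 at E16.5 and 0.988, 1.07 and 0.907 at E18.5, for replicates A, B and C in turn. The ratio in every E18.5 library was above that in every E16.5 library, although Abcb11 itself ranged 9.06-fold over the E18.5 libraries. On the log2(TPM + 1) scale the difference Slc10a1 minus Abcb11 went from -0.39 ± 0.07 to -0.02 ± 0.11 (SD, n = 3 each), a shift of 0.36. The exact permutation p was 0.1, the smallest possible, and 0.15 after adjustment over the 3 pairs compared. How often other pairs of genes have ratios without overlap was not computed.

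For the sterol pump, Abcg5 divided by Abcg8 was 0.476, 0.437 and 0.567 at E16.5 and 0.922, 1.94 and 0.847 at E18.5, again with no overlap. The log2(TPM + 1) difference shifted by 0.61, with an exact permutation p of 0.1 and an adjusted p of 0.15 over the 3 pairs. The ratio of 1.94 in E18.5 replicate B rests on 14 reads of Abcg5 and 10 of Abcg8, whose intervals in TPM were 0.552 to 1.70 and 0.250 to 0.960. For the bile salt exporter, Slc51a divided by Slc51b was 1.17, 3.10 and 9.31 at E16.5. No ratio could be formed at E18.5, where Slc51b was listed at 0, and the log2(TPM + 1) difference had an exact permutation p of 0.4.

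Relative to the mean log2(TPM + 1) of the hepatoblast list in the same library, all 10 members were higher at E18.5 on average, and 6 of them without overlap. The number higher was near the background, since 96.5% of all genes tested were higher on that measure. Without overlap and higher were 84.3% of all genes tested, a larger share than among the members (5 of the 8 tested). Against Hnf4a alone, a transcription factor of the hepatocyte lineage, the shifts on the log2(TPM + 1) scale were -0.16 for Abcb11, 0.09 for Abcc2, 0.04 for Abcb4, 0.20 for Slc10a1 and 0.86 for Slco1b2. The stages overlapped for these 5 members on that measure, and for Slc51a (0.32) and Slc51b. They did not overlap for Abcg5 (0.92), Abcg8 (0.31) and Slc10a2 (1.02), all higher at E18.5 with an exact permutation p of 0.1, the smallest possible, and 0.333 after adjustment over the 10 members. These genes had at most 2.04 TPM, where the pseudocount of 1 TPM weighs on the scale. Hnf4a itself had a log2 fold change of -0.62, while the median of all genes tested was 0.42. A typical gene is thus also higher at E18.5 against Hnf4a, and the share of all genes without overlap was not computed on this measure.

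Around the transporters, 55 other genes of bile transport, bile salt synthesis and their control were listed, of which 45 were tested. Of these, 22 were called (48.9%, against 31.2% of all genes), with 12 higher and 10 lower at E18.5 and a median log2 fold change of 0.003. After median-of-ratios scaling, which moved the median of all genes from 0.42 to 0.021, 3 were higher and 14 lower, so the split between the directions depends on the scaling. Without E18.5 replicate B there were 5 higher and 5 lower, without E18.5 replicate A 1 and 2, and without both E18.5 replicate B and E16.5 replicate C 5 and 3. Marker lists of other cells differed between the same groups. The 6 genes of a megakaryocyte list summed to between 2626 and 7842 TPM at E16.5 and between 66.0 and 612 TPM at E18.5, with 6 of 6 called lower, and the 6 genes of a mesenchyme list to between 85.9 and 191 TPM and between 188 and 546 TPM, with 1 called higher. The part of these cells in the changes was not tested. The plot of the pathway genes by role gives every estimate.

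**Figure D4:**
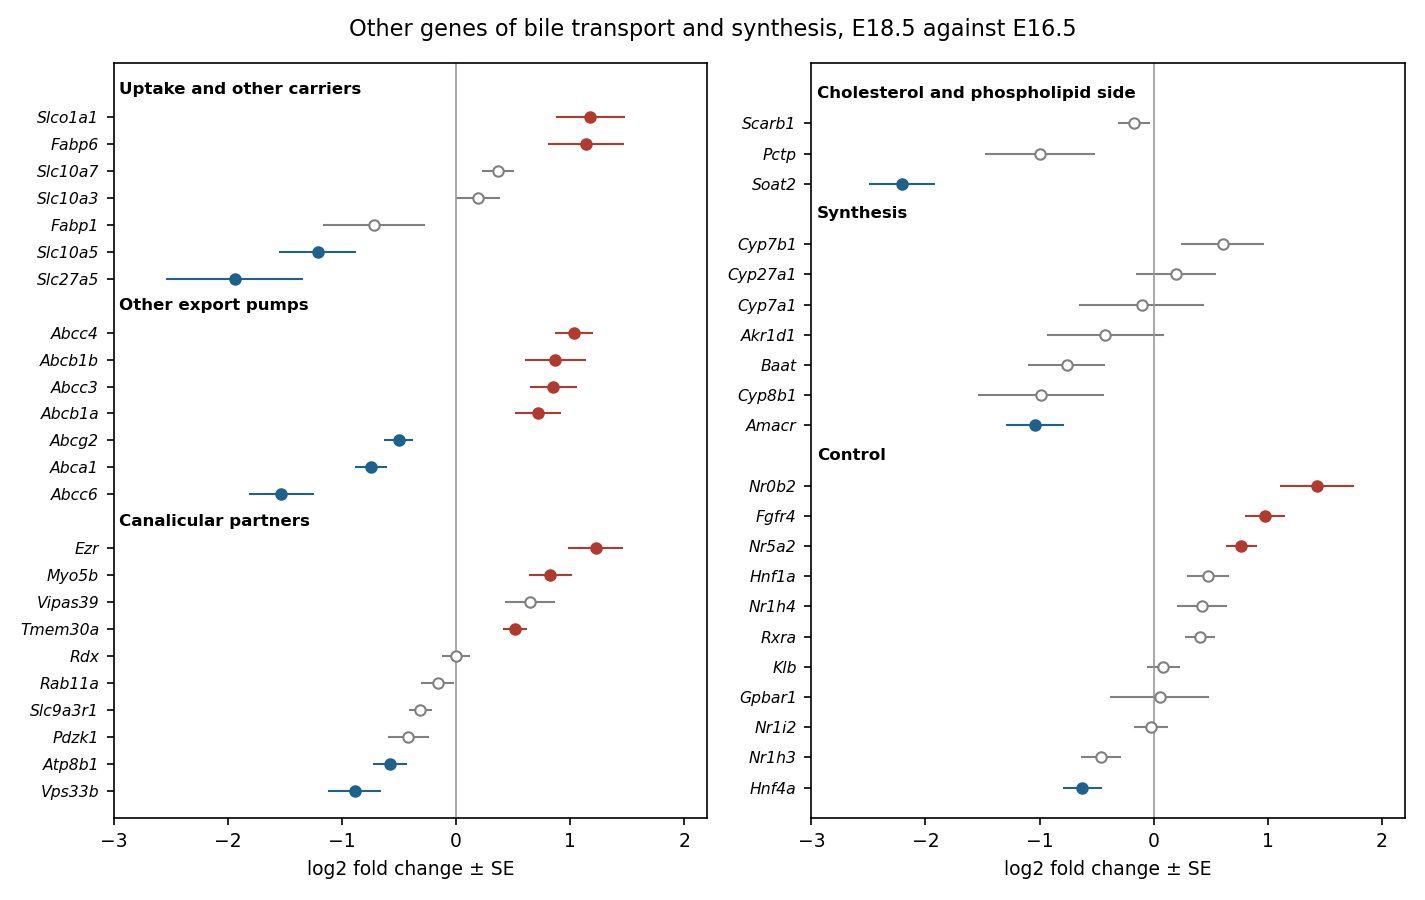
Log2 fold change of TPM + 1 with its standard error, E18.5 against E16.5, for the 45 tested genes of bile transport, synthesis and control, grouped by role. Red and blue points are genes called higher and lower at E18.5 (adjusted p under 0.05 in limma), and open points were not called. All 7 other export pumps were called, 4 of them higher, against 31.2% of all genes called (26.0% higher).

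All 7 other export pumps were called, 4 higher and 3 lower, against 26.0% of all genes called higher and 5.22% lower. Abcc3 and Abcc4 encode basolateral pumps that can return bile salts and conjugates to blood. Abcc4 rose from 13.6, 12.6 and 10.5 TPM to 23.7, 30.5 and 24.0 TPM, a log2 fold change of 1.03 ± 0.17 (SE) with an adjusted p of 0.0111 in limma. Abcc3 rose from 7.68, 8.66 and 5.26 TPM to 13.8, 14.5 and 12.4 TPM, by 0.85 on the log2 scale with an adjusted p of 0.0251 in limma, and its call was lost without E16.5 replicate A, without E18.5 replicate A or B, and with either rescaling of the libraries. Abcb1a and Abcb1b, apical multidrug pumps that are close copies of each other, rose too. Abcc6, a hepatocyte pump of the basolateral side, fell by 1.53 on the log2 scale, from 92.8, 88.7 and 107 TPM to 40.1, 19.6 and 43.6 TPM. Abca1 and Abcg2, pumps for cholesterol and for drugs and urate, fell as well. Of these pumps, 1 was higher and 3 were lower after median-of-ratios scaling, 1 and 1 were called without E18.5 replicate A, and 1 and 2 without E18.5 replicate B or without E16.5 replicate A. Abca1 was called under 13 and Abcg2 under 9 of the 14 alternatives planned.

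Of 10 partners of the canalicular membrane, 3 rose and 2 fell, shares to be read against 26.0% higher and 5.22% lower over all genes. Without E18.5 replicate A none of the 10 was called, and without E18.5 replicate B 1 was higher and 1 lower. Atp8b1, the flippase that keeps the canalicular membrane resistant to bile salts and works with ABCB4, had 46.4, 37.1 and 43.0 TPM at E16.5 and 26.9, 24.7 and 32.5 TPM at E18.5. Its log2 fold change was -0.58 ± 0.15 (SE), with an adjusted p of 0.0299 in limma, and the call was lost without E16.5 replicate A or C and without E18.5 replicate A or B. Atp8b1 was called under 7 of the 13 alternatives planned. Tmem30a, its chaperone subunit, rose by 0.51 on the log2 scale, near the median of all genes (0.42), and its estimate fell to as little as 0.064 under the alternatives planned. Ezr and Myo5b, a membrane linker of the apical side and a motor of apical delivery, rose by 1.22 and 0.82. Vps33b, a trafficking protein, fell by 0.89. Of the 14 alternatives planned, Ezr was called under 12 and Myo5b and Vps33b under 8. After median-of-ratios scaling 1 of the 10 was higher and 6 were lower.

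Of 7 tested synthesis genes, Amacr fell (a log2 fold change of -1.04) and 6 were not called, among them Cyp7a1, the rate-limiting enzyme of bile acid synthesis, whose values ran from 17.8 to 19.9 TPM at E16.5 and were 23.7, 6.19 and 35.7 TPM at E18.5. Amacr was called under 9 of the 13 alternatives planned, and its call was lost without E16.5 replicate A, B or C and without E18.5 replicate A. Hsd3b7 was listed at 0 in every library. The counts of this paragraph are to be read against 26.0% of all genes called higher and 5.22% lower. Of 7 tested carriers and binding proteins, 2 rose (Slco1a1 and Fabp6) and 2 fell (Slc10a5 and Slc27a5), and 0 of the 7 were called without any library other than E18.5 replicate C. Slc27a5, the enzyme that activates bile acids for conjugation, fell by 1.94 on the log2 scale, from 115, 85.7 and 149 TPM to 33.3, 10.4 and 67.5 TPM. Its call was lost without any library other than E18.5 replicate C, and it was called under 4 of the 14 alternatives planned. Soat2, which esterifies cholesterol, fell by 2.21, from 97.0, 89.5 and 117 TPM to 28.2, 12.7 and 25.5 TPM, with an adjusted p of 0.00858 in limma, and was the single gene called of 3 tested on the cholesterol and phospholipid side.

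Of 11 tested control genes, 3 rose and 1 fell, close to the 26.0% of all genes called higher, and none was called without E18.5 replicate A. Nr1h4, which encodes FXR, was not called: it had 24.2, 20.1 and 23.0 TPM at E16.5 and 31.1, 22.3 and 40.1 TPM at E18.5. Nr0b2, which encodes SHP, a repressor induced by FXR, rose from 3.91, 1.36 and 1.77 TPM to 7.62, 6.22 and 9.14 TPM, a log2 fold change of 1.43 with an adjusted p of 0.0212 in limma, and the call was lost without E16.5 replicate C, without any of the E18.5 replicates and with either rescaling. Fgfr4, the receptor for the gut hormone that restrains bile acid synthesis, and Nr5a2, a nuclear receptor of bile acid genes, rose by 0.98 and 0.77. Hnf4a, which is also in the hepatoblast list, fell by 0.62, with a call lost without any library other than E18.5 replicate C. It was called under 7 of the 14 alternatives planned. After median-of-ratios scaling 1 control gene was higher and 2 were lower. Of the pathway genes named here, Soat2 and Abcc4 were called under all 13 and Abcc6 under all 14 alternatives planned. Slco1a1 and Fabp6 were called under 3 of 13, Abcb1a under 5 of 14 and Abcb1b under 2 of 13, each with estimates above 0 throughout.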

How the data were processed

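RNA from the sorted cells was sequenced as stranded total RNA libraries. According to the study's methods and processing notes, the authors used FastQC 0.11.7 and Trimmomatic for quality and trimming, HISAT2 2.1.0 for alignment to GRCm38 and HTSeq-count 0.5.4p3 for counting on GENCODE vM15, and deposited the result as TPM. All 6 columns were used. Gene names, places and exon lengths were taken from GENCODE vM21, which holds 49035 of the listed identifiers with the same version.

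Multiplying TPM by exon length and dividing by what a single read contributes gave back the reads, which were whole within 0.01 for 100% of 180057 values. They gave intervals, the limit of 3 reads and the voom fit. Since all 6 libraries list the 37 mitochondrial genes at 0, a value of 0 is given only as listed.

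The test between stages was limma 3.58.1 (R 4.3.3, eBayes with a trend) after adding a pseudocount of 1. Single values and ratios were compared by exact permutation tests, two-sided, in SciPy 1.17.1. The fits were tested on simulated data. The members and gene lists were chosen with earlier results of these data known. Genes named were the members, examples of the lists, the 4 largest called changes of the pathway list without overlap, Abcc3, Abcc4, Atp8b1, Nr1h4 and Hnf4a, and the 3 genes most like each member. Ctrb1, Cpa1, Amy2a5, Pnlip, Krt19, Muc1 and Cldn4 were named after their values were seen.

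Alternatives were a pseudocount of 0.1, no filter, a minimum mean of 5 TPM, median-of-ratios and quantile scaling, eBayes without the trend, a replicate block, voom, and each library left out. Voom without E18.5 replicate B, leaving out both E18.5 replicate B and E16.5 replicate C, and the search with mismatches were added after seeing the data.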

Additional observations from a re-analysis of the deposited data

How the results depend on the processing

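Of the members, none was called under any setting except Abcb4 without E18.5 replicate C, so the number called ranged from 0 to 1 when each library was left out in turn. The direction turned for Abcb11 (log2 fold change 0.051 without E18.5 replicate B and 0.20 without both E18.5 replicate B and E16.5 replicate C), Slc10a1 (0.36 and 0.49, and 0.17 by voom without E18.5 replicate B), Slco1b2 (-0.16 with median-of-ratios scaling, -0.15 with quantile normalization and -0.44 without E18.5 replicate C), Abcg5 (-0.0062 with quantile normalization), Abcg8 (0.030 without both libraries), Slc51a (0.13 without E18.5 replicate A) and Nr1h4 (-0.013 with median-of-ratios scaling). Over single libraries left out, Abcc2 ranged from -0.70 to -0.28, Abcb4 from -0.93 to -0.30, Abcb11 from -1.49 to 0.05, Slc10a1 from -1.07 to 0.36, Slco1b2 from -0.44 to 0.98 and Slc51a from -0.60 to 0.13.

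Over all genes the 7000 calls became 4282 with no filter on low values, 3863 with median-of-ratios scaling (39.6% of the calls higher, 83.3% as deposited), 3784 with quantile normalization (50.6% higher), 2374 without both libraries and 2949 by voom without E18.5 replicate B, and ranged from 1148 to 5432 over single libraries left out, the lowest without E18.5 replicate A. In the pathway list the 12 genes higher at E18.5 became 3 with median-of-ratios scaling, 4 with quantile normalization, 5 without both libraries and 6 by voom without E18.5 replicate B, and 1 to 9 over single libraries left out. The 10 lower genes became 5 with no filter and 3 without both libraries, and 2 to 13 over single libraries left out. The shift of the Abcg5 to Abcg8 ratio was 1.11, and that of Slc51a to Slc51b 2.61, with a pseudocount of 0.1, since these genes are low. The causes of the other differences were not tested.

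With the letters as a replicate block, 7314 genes and 0 members were called. The deviations of libraries with the same letter correlated at -0.04 to 0.14, and those with different letters at -0.15 to 0.08, so the letters were not taken to pair the libraries. Depth limits Slc10a2, Slc51b, Abcg5 and Abcg8, which rest on at most 61 reads in a library.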
